A study of Danio rerio with 2 samples.

Results

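The SWI/SNF subunit genes encode the parts of an ATP-dependent chromatin remodeling complex, and their own accessibility was examined here in the hearts of *heart of stone* (*hos*) mutants. The members were the subunit genes of a list of 38, chosen with earlier results of these data known. Of them, 37 were named by at least 1 region of the deposited ATAC-seq table, out of 22038 genes named there. *ss18l1* was named by no region of the table and was not analysed here. The 37 genes took 140 of 41473 regions. Distances here run from the annotated gene start to the middle of a region. Of the 37 genes, 36 had a region centred within 1000 bp of the start, called a promoter region below. *bicral* was the exception, the middle of its nearest region lying 1195 bp inside the gene.

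Hearts of *hos* mutants and of their siblings, labelled wild type, were dissected at 96 h post-fertilization from *hos*/Tg(*myl7*:GFP) embryos, in which the *myl7* promoter drives GFP in cardiomyocytes in both groups. The protocol names 60 hearts, and each genotype gave 1 pooled library, so no test of genotype was possible and each difference below is one between these 2 libraries. The title of the series names Smarce1 as the subunit that controls cardiomyocyte proliferation, while the labels do not give the *hos* allele. Cardiomyocytes are the labelled cell type, but whole hearts were dissected, so a different share of cells and a different accessibility per cell cannot be told apart.

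SWI/SNF complexes use the energy of ATP to slide or evict nucleosomes and so open DNA at promoters and enhancers. An ATPase (Smarca4 or Smarca2) is joined by shared subunits, among them, in BAF and PBAF complexes, Smarce1. BAF complexes add Arid1, Dpf, Ss18 and Bcl11 subunits, and PBAF complexes add Arid2, Pbrm1, Brd7 and Phf10. The ncBAF complexes hold Brd9 and Bicra or Bicral. In mice, subunits are exchanged as progenitors differentiate, and the BAF60c subunit encoded by *Smarcd3* is needed for heart development. The genes were therefore grouped as shared (19 genes, the ATPases included), BAF (11, *ss18l1* among them), PBAF (5) and ncBAF (3). Ss18 also occurs in ncBAF and beta-actin also forms the cytoskeleton.

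The regions held an estimated 4748194 tags in the mutant library and 4091429 in the sibling library, and the sources used here do not say how the libraries were scaled. The median log2 ratio of mutant over sibling signal, each plus 1, was 0.15 over all regions and 0.25 over 14591 gene promoters, with quartiles of 0.03 and 0.45 over the promoters. The values of the subunit genes are best read against these medians. Of the cardiomyocyte markers, 6 of 10 had a promoter region (8 had any region), with a summed signal of 434 in the mutant library and 264 in the sibling library. All 6 were higher in the mutant library, against 77.3% of all gene promoters, and 4 were 2-fold higher, against 1.79%. The median log2 ratio of the 6 was 1.30. They were weak in the sibling library, with a median signal of 18.6, against 47.6 over all gene promoters. *myl7*, with 181 in the mutant library and 143 in the sibling library, was the strongest and had the lowest ratio of the 6, 0.34. The transgene of both groups also carries the *myl7* promoter, and its part in this signal cannot be told apart. For the other cell types, the summed promoter signals in the mutant and the sibling library were 250 and 181 for 4 endocardial markers, 81.3 and 106 for 3 epicardial, 14.6 and 56.6 for 2 skeletal muscle, 499 and 422 for 6 neural and 278 and 251 for 5 epidermal, gut and liver markers. The median log2 ratios of the neural and of the epidermal, gut and liver markers were -0.02 and 0.02, and single genes carried their sums, *elavl3* with 171 in the mutant library and 99.2 in the sibling library and *pdx1* with 63.1 in the mutant library and 20.8 in the sibling library. The median log2 ratios of the endocardial, epicardial and skeletal muscle markers were 0.69, -0.62 and -1.86. Of the 3 epicardial markers, *wt1a* was higher in the mutant library (log2 ratio 0.48), and *wt1b* and *tbx18* were lower. The skeletal muscle value rests on 2 of 6 listed markers, both weak in the mutant library, *mylpfa* at 5.29 and *tnnt3b* at 9.29. With a lowess curve of the ratio on mean signal subtracted, as described below, the 3 medians were 0.52, -0.70 and -0.11. No blood marker had a promoter region. The part of these cell types in the results below was not tested.

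The ratio of mutant over sibling signal had a slightly higher median at SWI/SNF promoters than over all gene promoters. The BAF subunits had the higher values, while the shared subunits, at a median log2 ratio of 0.28, lay near all gene promoters. The median log2 ratio over the 36 promoters was 0.37, a median fold of 1.3, against 0.25 and 1.19 over all gene promoters. Of the 36 promoters, 34 had a ratio above 0, against 77.3% of all gene promoters. The median of all gene promoters was passed by 26 of the 36 (50% by construction) and their upper quartile by 14 (25%). None of the 36 was 2-fold higher or 2-fold lower, against 1.79% and 0.788% of all gene promoters.

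Single promoters were measured with moderate precision. The estimated tags at a member promoter ran from 30 to 1114, with a median of 281.5 in the mutant library and 227.5 in the sibling library. The exact 95% counting interval of the fold lay above 1 at 22 of the 36 promoters, against 36.8% of all gene promoters, and below 1 at none of them, against 3.34%. It lay above the median fold of all gene promoters at 14 of the 36, against 11.7%. These intervals cover counting error only, and they are narrower at strong promoters. The subunit promoters were stronger than most: the median signal was 106 in the mutant library and 73.2 in the sibling library, against 56.3 and 47.6 over all gene promoters. Over the whole table the ratio was higher at stronger regions. When a lowess curve of the ratio on mean signal was subtracted (lowess centring), the subunit promoters had a median of 0.13 and all gene promoters one of 0.04, and 28 of the 36 had a ratio above 0, against 55.6% of all gene promoters.

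Other features of the subunit promoters, which the list did not use, were set beside those of all gene promoters. They were not separated from the stronger signal of the subunit promoters. A called interval was present in both libraries at 35 of the 36, the exception being *phf10* with one in the sibling library only, against 85.8% of all gene promoters. A CpG island overlapped 14 of the 36 promoter regions, against 23.1% of all gene promoters, and the median region was 581 bp long, against 455 bp.

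**Figure D1:**
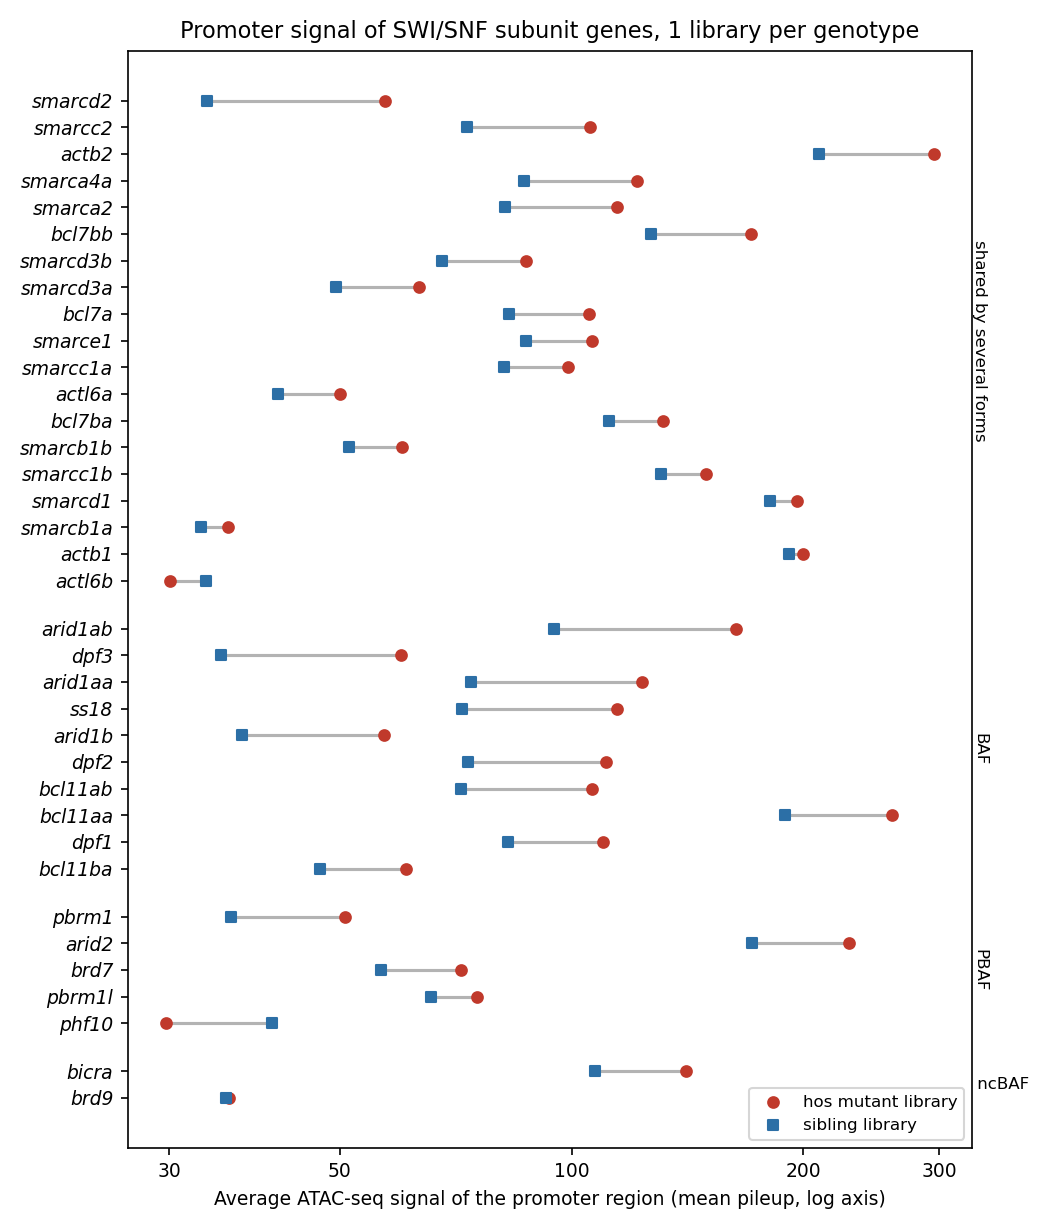
Average ATAC-seq signal (mean pileup, log axis) of the promoter region of 36 SWI/SNF subunit genes, grouped by complex form and ordered by ratio within each form. Circles are the *hos* mutant library and squares the sibling library, 1 library each. The circle lies to the right of the square for 34 genes, and to the left for *actl6b* and *phf10*.

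All 10 BAF promoters of the list had a higher ratio than the median gene promoter. Of a pair of relatives outside the list, looked up after their values were seen, *dpf2l* was below that median and *ss18l2* above it. The counting intervals of both relatives held the median fold of all gene promoters. The median log2 ratio of the 10 BAF promoters was 0.59, with a range of 0.36 to 0.78. By comparison, the median was 0.28 over 19 shared subunits, 0.34 over 5 PBAF subunits and 0.20 over 2 ncBAF subunits. The upper quartile of gene promoters was passed by 8 of 10 BAF, 5 of 19 shared and 1 of 5 PBAF promoters, against 25% by construction. The counting interval lay above 1 at 9 of 10 BAF, 10 of 19 shared, 2 of 5 PBAF and 1 of 2 ncBAF promoters. The share over all gene promoters was 36.8%, and their median fold was itself above 1, at 1.19. With 1 library per genotype, the difference between the complex forms was not tested. After lowess centring the BAF median was 0.37, and with peak signal in place of average signal it was 0.48.

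The 3 Arid1 genes, whose DNA-binding products define BAF complexes, were near the top. At *arid1ab* (gene 568161, chromosome 19, 14351858 to 14352576 of danRer11) the signal was 163 in the mutant library and 95 in the sibling library, a fold of 1.72 (1.49 to 1.99), the highest of all 36 promoters. Its co-ortholog *arid1aa* (chromosome 16, 33953138 to 33954401) had 123 in the mutant library and 73.9 in the sibling library, a fold of 1.67 (1.48 to 1.89). The *arid1aa* start is flanked by a pair of regions at almost the same distance, and the other one, at -941 bp, had 230 in the mutant library and 146 in the sibling library, a log2 ratio of 0.65. At *arid1b* the promoter region spans 1456 bp with 2 CpG islands, and the signal was 57 in the mutant library and 37.4 in the sibling library, a fold of 1.53 (1.3 to 1.80). All 3 intervals lay above the median fold of gene promoters.

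The Dpf genes encode PHD finger subunits that read acetylated histones, and in mice *Dpf2* is broadly expressed while *Dpf1* and *Dpf3* are found in neurons, *Dpf3* also in heart and muscle. At *dpf3* (chromosome 20, 28434387 to 28434991) the signal was 59.9 in the mutant library and 35.1 in the sibling library, a fold of 1.71 (1.32 to 2.22), and this region also lies at the start of *wdr21*. At *dpf2* the signal was 111 in the mutant library and 73.3 in the sibling library, a fold of 1.51 (1.24 to 1.85). At *dpf1* it was 110 in the mutant library and 82.7 in the sibling library, a fold of 1.33 (1.12 to 1.56). The 3 intervals overlapped, so no order among the Dpf genes could be read at this depth. A second region within 1000 bp of the start had a log2 ratio of 0.61 at *dpf3* and 0.55 at *dpf2*, close to the first.

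*ss18*, which encodes a subunit at the surface of BAF and ncBAF, had 114 in the mutant library and 72.1 in the sibling library, a fold of 1.59 (1.36 to 1.85). The Bcl11 genes encode zinc finger transcription factors known from neurons and lymphocytes. *bcl11aa* had the strongest promoter of the BAF group, with 261 in the mutant library and 189 in the sibling library and a fold of 1.38 (1.26 to 1.51). *bcl11ab* had 106 in the mutant library and 71.8 in the sibling library, a fold of 1.48 (1.22 to 1.80). *bcl11ba* was the lowest of the group, with 61.0 in the mutant library and 47.2 in the sibling library and a fold of 1.29 (0.999 to 1.67), the only BAF interval that reached 1.

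**Figure D2:**
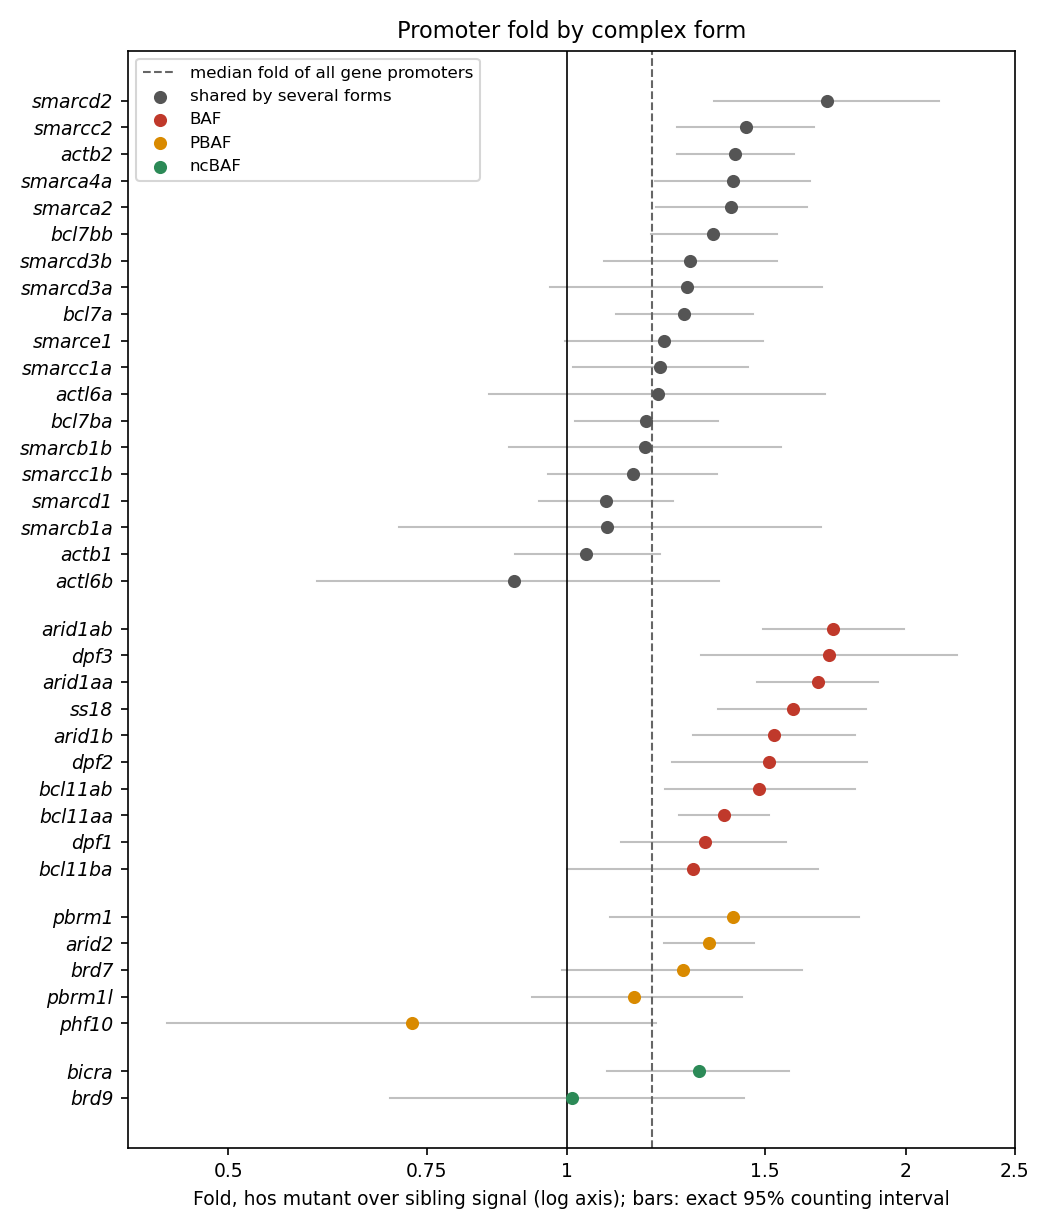
Fold of *hos* mutant over sibling promoter signal (log axis) with the exact 95% counting interval from estimated tags, by complex form. The dashed line is the median fold of all gene promoters, 1.19. All 10 BAF points lie to the right of it, as do 12 of 19 shared and 3 of 5 PBAF points.

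Among the shared subunits, *smarce1* itself was ordinary. Its promoter (gene 322248, chromosome 3, 34985675 to 34986131, 47 bp from the start) had 106 in the mutant library and 87.3 in the sibling library, a fold of 1.22 (0.995 to 1.49), the middle value of the 19 shared promoters, and a log2 ratio of 0.02 after lowess centring. The only other *smarce1* region, 12238 bp downstream of the start, had 41.8 in the mutant library and 41.5 in the sibling library. Accessibility at these regions does not check the genotype.

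Both ATPase genes had the same ratio. *smarca4a*, the Brg1 gene, had 122 in the mutant library and 86.7 in the sibling library, a fold of 1.40 (1.2 to 1.64). *smarca2*, the Brm gene, had 114 in the mutant library and 81.9 in the sibling library, a fold of 1.40 (1.2 to 1.63). Their intervals overlapped almost entirely. *smarca4a* had 2 further regions downstream of the gene, with log2 ratios of 0.20 and -0.36, and *smarca2* had none.

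The other core genes ran from 1.08-fold to 1.70-fold. Of the Smarcd genes, which encode BAF60 subunits that bridge the complex to transcription factors, *smarcd2* was the highest shared promoter, with 57.2 in the mutant library and 33.6 in the sibling library and a fold of 1.70 (1.35 to 2.14). The 2 *smarcd3* genes, orthologs of mammalian BAF60c, had nearly the same ratio: *smarcd3a* had 63.3 in the mutant library and 49.5 in the sibling library, a fold of 1.28 (0.966 to 1.68), and *smarcd3b* had 87.3 in the mutant library and 67.9 in the sibling library, a fold of 1.29 (1.08 to 1.54). *smarcd1* had a strong promoter with 196 in the mutant library and 181 in the sibling library, a fold of 1.08 (0.945 to 1.24). A weaker *smarcd1* region 438 bp inside the gene was 2.25-fold (1.31 to 3.94) higher, with 51.0 in the mutant library and 22.7 in the sibling library. It was called in the mutant but not the sibling library, and both *smarcd1* regions are shared with *LOC100535550*, whose start is close by.

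Of the Smarcc genes, which encode the paired scaffold of the core, *smarcc2* had 106 in the mutant library and 73.2 in the sibling library, a fold of 1.44 (1.25 to 1.66). Of the duplicates, *smarcc1a* had 99 in the mutant library and 81.8 in the sibling library, a fold of 1.21 (1.01 to 1.45). *smarcc1b* had 150 in the mutant library and 131 in the sibling library, a fold of 1.15 (0.962 to 1.36). The Snf5 genes *smarcb1a* and *smarcb1b* encode a core subunit that contacts the nucleosome, and both intervals spanned 1. *smarcb1a* had 35.8 in the mutant library and 33.0 in the sibling library, a fold of 1.08 (0.709 to 1.68), and *smarcb1b* had 60.3 in the mutant library and 51.4 in the sibling library, a fold of 1.17 (0.888 to 1.55).

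The actin and actin-related genes form the module that binds the ATPase, and their log2 ratios ran from -0.15 to 0.49. *actb2* had the strongest promoter in the list, with 295 in the mutant library and 209 in the sibling library and a fold of 1.41 (1.25 to 1.59). *actb1* had 200 in the mutant library and 192 in the sibling library, a fold of 1.04 (0.899 to 1.21). Of the 7 duplicate pairs, *actb1* and *actb2* were the only one whose intervals did not overlap. At *actb1* the ratio depended on the region: a second one at 794 bp had 222 in the mutant library and 144 in the sibling library, a log2 ratio of 0.62. At *actb2* a second region at 458 bp had 147 in the mutant library and 82.0 in the sibling library, a log2 ratio of 0.83, and was called in the mutant but not the sibling library.

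*actl6a* and *actl6b* encode BAF53 subunits, the first of proliferating cells and the second of neurons in mice. *actl6a* had 50 in the mutant library and 41.5 in the sibling library, a fold of 1.2 (0.852 to 1.69). *actl6b* was 1 of the 2 member promoters with a ratio below 0, with 30.1 in the mutant library and 33.5 in the sibling library and a fold of 0.897 (0.6 to 1.36). The intervals of the pair overlapped, and both spanned 1. The neural markers had log2 ratios from -0.28 to 0.78 in the same libraries, 3 of 6 above 0.

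The Bcl7 genes, whose small products bind the ATPase module, had log2 ratios of 0.34 (*bcl7a*), 0.23 (*bcl7ba*) and 0.43 (*bcl7bb*). *bcl7a* had 105 in the mutant library and 83.0 in the sibling library. The duplicates had 131 in the mutant library and 112 in the sibling library at *bcl7ba*, a fold of 1.17 (1.02 to 1.36), and 171 in the mutant library and 127 in the sibling library at *bcl7bb*, a fold of 1.35 (1.19 to 1.54).

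The PBAF promoters had a median between those of the BAF and the shared promoters. *arid2*, the PBAF counterpart of the Arid1 genes, had 229 in the mutant library and 171 in the sibling library, a fold of 1.34 (1.22 to 1.47), and its interval overlapped that of *arid1b* but lay below those of *arid1aa* and *arid1ab*. The polybromo genes *pbrm1* and *pbrm1l* encode the multi-bromodomain subunit, which is needed for heart chamber growth in mice. *pbrm1* had 50.7 in the mutant library and 36.1 in the sibling library, a fold of 1.41 (1.09 to 1.82), in a region it shares with *gnl3*. *pbrm1l* had 75.3 in the mutant library and 65.6 in the sibling library, a fold of 1.15 (0.930 to 1.43). *brd7*, a bromodomain subunit, had 71.8 in the mutant library and 56.6 in the sibling library, a fold of 1.27 (0.990 to 1.62).

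*phf10*, the PHD finger gene of PBAF, was the lowest member, with 29.8 in the mutant library and 40.9 in the sibling library and a fold of 0.728 (0.441 to 1.2). This value rests on 30 and 41 estimated tags in a region 226 bp long, shared with the start of *actr2b*. The stronger region on the other side of the start, at -478 bp, had 55.1 in the mutant library and 45.1 in the sibling library, a log2 ratio of 0.28. The direction at *phf10* thus depended on the region chosen.

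Of the ncBAF genes, *brd9*, a bromodomain subunit gene that shares its start with *trip13*, had 35.9 in the mutant library and 35.5 in the sibling library, a fold of 1.01 (0.696 to 1.44). *bicra*, which encodes the subunit that defines ncBAF, had 141 in the mutant library and 107 in the sibling library, a fold of 1.31 (1.09 to 1.58). Its paralog *bicral* had no region centred within 1000 bp of its start. The nearest, centred at 1195 bp, had 153 in the mutant library and 107 in the sibling library, a log2 ratio of 0.51. This region is long, and its near end lies within 1000 bp of the start. It was counted with the in-gene regions below.

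Away from the promoters the pattern changed with position. The 97 regions centred more than 1000 bp from the start of their subunit gene had a median log2 ratio of 0.23, against 0.15 over 32174 such regions of all genes. Some of them still reached inside 1000 bp: those at -1012 bp of *smarcc1b*, 1195 bp of *bicral* and 1248 bp of *actb2*. Their log2 ratios were 0.33, 0.51 and 0.49, and the *bicral* and *actb2* regions are among the in-gene regions below. Of these 97, 22 lay at the start of another gene and had a median of 0.28. In a split chosen after seeing the data, the other 75 had a median of 0.05, against 0.06 for such regions of all genes. The 47 regions inside subunit genes and centred more than 1000 bp from any gene start had a median of -0.03, with 25 below 0. Of 17140 such regions of all genes, 48.8% were below 0, and their median was 0.02. In-gene regions of subunit genes were thus like in-gene regions elsewhere. They were weak, with a median signal of 29.2 in the mutant library and 36.6 in the sibling library, and 26 of the 47 held a called interval in both libraries, 8 in the mutant library only and 13 in the sibling library only. Over all in-gene regions these shares were 51.6%, 20.7% and 27.7%. The counting interval of the fold lay above 1 at 10 of the 47 and below 1 at 7, against 16.1% and 15.4% of all in-gene regions. With a floor on mean signal the in-gene median turned above 0, to 0.16 over 21 regions of subunit genes and 0.13 over all genes.

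**Figure D3:**
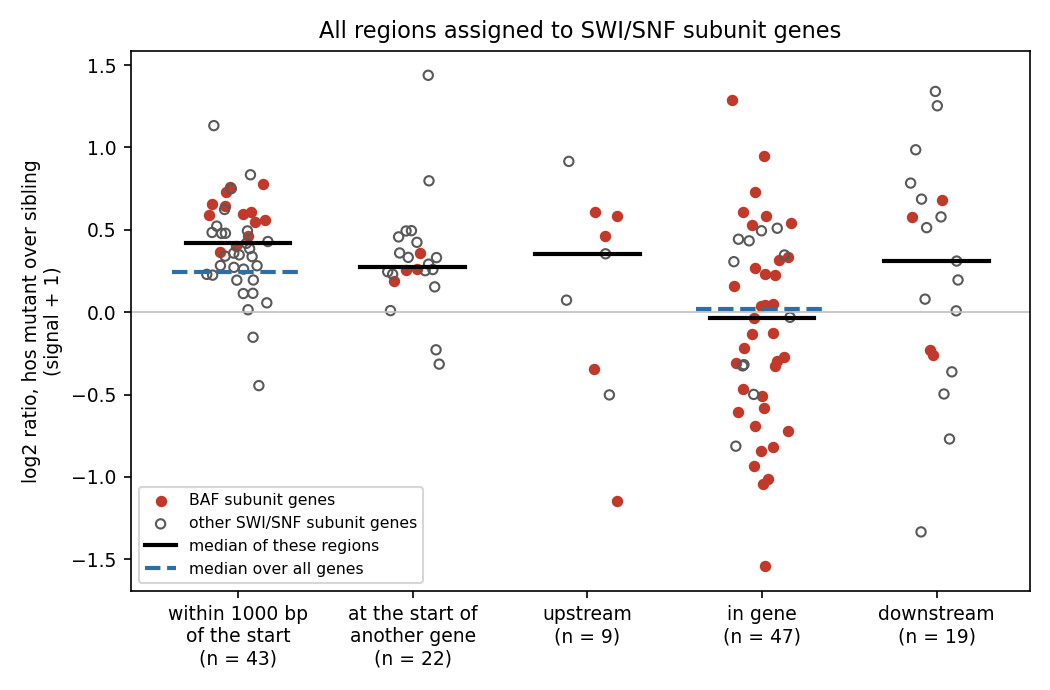
Log2 ratio of *hos* mutant over sibling signal, each plus 1, for the 140 regions assigned to SWI/SNF subunit genes, by position. Filled points belong to BAF genes, black bars are medians, and dashed bars are the medians over all genes for the region nearest each start (0.25) and for in-gene regions (0.02). The BAF points lie above the dashed bar at promoters and on both sides of 0 inside genes.

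The large BAF genes held most of the in-gene regions, 36 of the 47, with a median of -0.13. The 9 in the shared genes, 4 of them in *smarcd3b*, had a median of 0.31. Of these 9, 5 were above 0 and 4 below, and of the 36 in BAF genes 16 were above and 20 below. After lowess centring the medians were -0.10 in the BAF genes and 0.15 in the shared genes. In 10 of the 14 subunit genes with both kinds of region, the in-gene median was below the promoter value, against 66.9% of 5080 such genes in the table, a share near that of all genes. The median of the difference, in-gene minus promoter, was -0.68 over the 14 genes and -0.26 over all 5080. It was largest at *smarcd2* (-1.56), where the only in-gene region had 23.0 in the mutant library and 41.2 in the sibling library, and at *bcl11ab* (-1.28). These differences were taken without lowess centring, although the in-gene regions were weaker than the promoters. After lowess centring *smarcd2* had 0.59 at the promoter and -0.89 in the gene. *bcl11ab* then had 0.31 at the promoter and an in-gene median of -0.05, a smaller contrast. At *dpf1*, *smarcb1b*, *smarcd3b* and *actb2* the in-gene median was at or above the promoter value.

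*arid1b* had the most regions, 12, against a median of 3 per subunit gene and 2 per gene in the table. Inside it, 6 of 10 in-gene regions had a ratio below 0. A region at 46810 bp had 39.3 in the mutant library and 81.8 in the sibling library, a fold of 0.480 (0.364 to 0.622), and the strongest one, at 68329 bp, had 214 in the mutant library and 140 in the sibling library, a log2 ratio of 0.61. Regions of 1 gene thus pointed in opposite directions. *arid1ab* had 8 in-gene regions with a median of -0.09, 4 above 0 and 4 below. Its lowest region, at 78171 bp, had 26.9 in the mutant library and 55.3 in the sibling library, a fold of 0.486 (0.355 to 0.675). At *bcl11ab* 3 in-gene regions had -1.54, -0.72 and 0.58, each called in 1 library only.

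**Figure D4:**
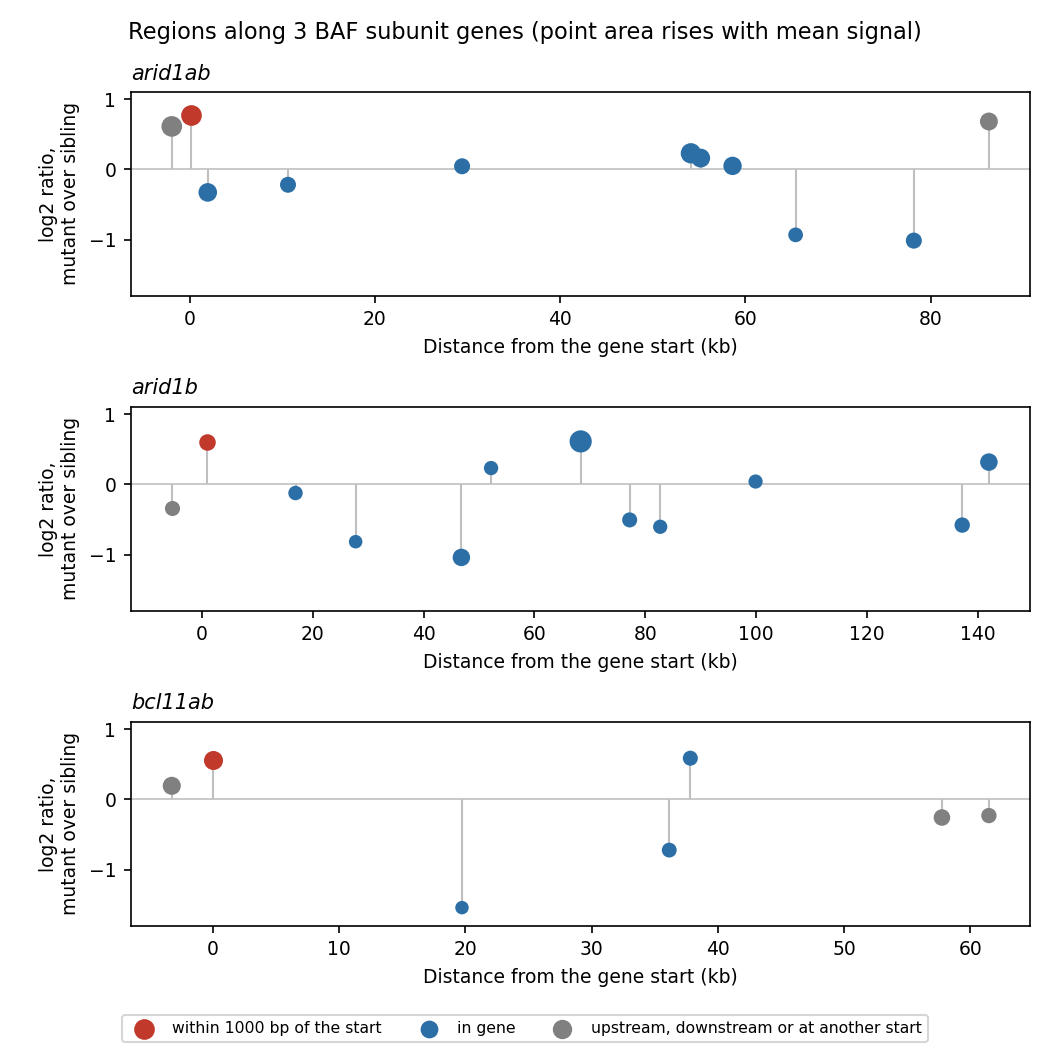
Log2 ratio of *hos* mutant over sibling signal, each plus 1, of every region assigned to *arid1ab*, *arid1b* and *bcl11ab*, by distance from the gene start in kb. The point area rises with mean signal. The promoter points stand at 0.78, 0.60 and 0.56, while the in-gene points run from -1.01 to 0.23 in *arid1ab*, from -1.04 to 0.61 in *arid1b* and from -1.54 to 0.58 in *bcl11ab*.

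Over all 140 regions, 5 passed 2-fold upward and 5 downward in the mutant library, against 3.32% and 4.83% of all regions. These numbers are near those shares. Inside genes, 1 of 47 was 2-fold higher and 3 were 2-fold lower, against 3.58% and 7.6% of all such regions. The higher ones were the *smarcd1* region given above, a region inside *dpf1*, and regions downstream of *actl6b*, *bicral* and *pbrm1l*. The *dpf1* region, at 77497 bp, had 26.8 in the mutant library and 10.4 in the sibling library, a fold of 2.58 (1.56 to 4.45). Its log2 ratio was 1.29, or 2.56 after lowess centring. The larger value comes from a lowess curve below 0 at such weak signal, not from a larger difference between the libraries. The *actl6b* region, at 29511 bp, had 34.7 in the mutant library and 13.1 in the sibling library, a fold of 2.65 (1.52 to 4.87). The *bicral* region, at 14021 bp, had 36.9 in the mutant library and 14.9 in the sibling library, a fold of 2.48 (1.47 to 4.33). The *pbrm1l* region, at 25377 bp, lies at the start of *stau1* and had the highest fold of all 140 regions, 2.82 (1.94 to 4.12), with 45.7 in the mutant library and 16.2 in the sibling library. None of these 5 was called in the sibling library, so each stands in the table through its mutant call alone. That selection favours high folds, and the counting intervals do not allow for it.

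The lower ones were the regions inside *arid1ab*, *arid1b* and *bcl11ab* given above, a region upstream of *ss18* and one downstream of *smarcc1b*. The *bcl11ab* region, at 19726 bp, had 8.75 in the mutant library and 27.4 in the sibling library, a fold of 0.320 (0.141 to 0.675), but these are 10 and 31 estimated tags and the log2 ratio was -0.05 after lowess centring. The *ss18* region, at -5183 bp, had 21.1 in the mutant library and 47.9 in the sibling library, a fold of 0.441 (0.271 to 0.724), while the *ss18* promoter was higher in the mutant library. The *smarcc1b* region, at 45633 bp, had 11.5 in the mutant library and 30.5 in the sibling library, a fold of 0.377 (0.160 to 0.790), from 10 and 27 estimated tags. After lowess centring its log2 ratio was -0.43, short of 2-fold. The *arid1ab* and *arid1b* regions were called in both libraries and the other 3 in the sibling library only. For those 3 the selection favours low folds, which the counting intervals do not allow for either.

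Other chromatin remodeler genes were set beside the SWI/SNF genes from a list of 56, of which 51 had a region and 49 a promoter region. The list covers the ISWI, CHD, NuRD and INO80 families and also names genes outside them, such as *hells*, *atrx*, *smarcal1* and *smarcad1a*. Their median log2 ratio was 0.26, close to that of all gene promoters, against 0.37 over the SWI/SNF promoters, and after lowess centring 0.02 against 0.13. Of the 49, 41 were above 0 and 1 was 2-fold higher, shares near the 77.3% and 1.79% of all gene promoters. The highest were *gatad2ab*, a NuRD subunit gene, at 1.0 and *pole3* at 0.68, and the lowest *mbd3b*, another NuRD subunit gene, at -0.50 and *dmap1* at -0.29. The median promoter signal of these genes was 80.4 in the mutant library and 69.0 in the sibling library. With 1 library per genotype the difference between the families was not tested.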

How the data were processed

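ATAC-seq was performed by a commercial service on dissected hearts, 1 library from *hos* mutants and 1 from siblings, grouped by the genotype labels. The processing notes of the submitters name MACS2 2.1.0 and danRer11, while the aligner, duplicate handling, transposase shift and library scaling were not given in the sources used here. For each merged region the deposited table holds an average signal (mean pileup), a peak signal, and whether either library had a called interval there. Further columns hold the authors' own log2 ratio and shrunken fold change and were not used. A gene table of the authors gave gene identifiers.

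From the deposited signals log2((mutant + 1)/(sibling + 1)) was computed, with no further scaling and no floor. Each gene took its promoter value from the nearest region centred within 1000 bp of its start, and 2-fold was the limit for counts. Tags were estimated as signal times length over 224, the divisor of the deposited tag column. Fold intervals are exact binomial 95% intervals on these tags. Alternatives covered centring, pseudocounts, peak signal, a floor on mean signal, the region, the distance and the fold limit. The members and lists were chosen with earlier results of these data known. All members are named; signals, fold and interval are given for *smarce1*, the ends of each group, duplicate and switch pairs and regions past 2-fold. For the other remodelers the 2 genes at either end are named. No genome or sequence table of the same build was used here, so no sequence is shown. The log2 ratio and the counting interval were checked on simulated Poisson tags, the error that the interval assumes, with known changes at strong regions only. Changes at weak regions and the lowess centring were not simulated, and the 2-fold count was recorded there without a check. The lowess curve (statsmodels 0.14.6) had a span of 0.2, intervals came from scipy 1.17.1, tables were handled in Python 3.11.15 with pandas 2.3.3 and numpy 2.4.6, and plots were drawn with matplotlib 3.10.9.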

Additional observations from a re-analysis of the deposited data

How the results depend on the processing

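No paired analysis was possible because each genotype had 1 library. Centring on the median of all regions lowered the promoter median to 0.22 over all subunit genes and 0.13 over shared subunits, against 0.09 over all gene promoters. Lowess centring gave promoter medians of 0.13 (all subunit genes), 0.080 (shared), 0.37 (BAF) and 0.0056 (ncBAF), against 0.04 over all gene promoters, and 0.0072 over regions away from promoters. The median of in-gene regions turned to 0.16 with a floor on mean signal of 34.6, which kept 21 of 47 regions, and that of all genes was 0.13. The numbers of regions past 2-fold, higher and lower, were 8 and 3 after lowess centring (5.19% and 1.27% of all regions) and 1 and 2 of 95 with the floor (1.03% and 0.347%), so that the lower ones exceeded the share of all regions under the floor. With a pseudocount of 5 there were 3 lower regions (2.79%). At a 1.5-fold limit they were 26 and 13, against 15.4% and 12.7% of all regions. In the other settings the medians stayed within the spread of the member values (the order-statistic interval of the median) and the counts within 1.5 times of those reported. This check says little for the 2 ncBAF promoters. Their median of 0.20 became 0.39, over 3 promoters, with a promoter distance of 2000 bp. Without the 6 promoters that lie at the start of another gene, the promoter median was 0.39. This setting, the split of the regions away from promoters and the settings for in-gene regions were chosen after seeing the data. Of single named values, 20 of 46 left their counting interval after lowess centring, and no region past 2-fold changed sign in the settings run.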

Other observations

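A pair of paralogs outside the list was looked up after its values were seen. *dpf2l*, a second relative of *dpf2*, had 104 in the mutant library and 89.6 in the sibling library at -499 bp. Its log2 ratio of 0.21 was below the *dpf2* promoter at 0.59. It was also below the median of all gene promoters, 0.25, unlike the 10 BAF promoters of the list. Its fold was 1.16 (1.03 to 1.31), an interval that holds the median fold of all gene promoters, 1.19. An upstream *dpf2l* region, at -6727 bp, had 67.9 in the mutant library and 38.4 in the sibling library, a log2 ratio of 0.81. *ss18l2*, a relative of *ss18*, had 63.0 in the mutant library and 45.0 in the sibling library, a fold of 1.40 (1.09 to 1.79), at its start. Of the subunit genes, *smarca4a*, *smarce1* and *actb2* lie on chromosome 3, with promoter log2 ratios of 0.48, 0.28 and 0.49.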
